A study of Mus musculus with 18 samples.

Results

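The ERBB receptors and the EGF-family ligands are described here in cultured mouse lung epithelium and in the tumors grown from it. The genes were taken by name from the GENCODE vM21 annotation of GRCm38: the receptors Egfr, Erbb2, Erbb3 and Erbb4, and the ligands Egf, Tgfa, Areg, Ereg, Hbegf and Btc, which are 10 of the 46603 genes in each culture's table.

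ERBB receptors are tyrosine kinases at the cell surface that pair when a ligand binds and then signal to growth and survival. Egfr binds Egf, Tgfa, Areg, Ereg, Hbegf and Btc. Erbb2 has no known ligand and acts as a partner of the other receptors, Erbb3 has little kinase activity of its own and binds neuregulins, and Erbb4 binds neuregulins as well as Hbegf, Btc and Ereg. The ligands are made as membrane proteins and are cut free by metalloproteases, chiefly Adam17 with its iRhom partners. In lung epithelium the family is known for its roles in repair after injury, and mutant EGFR is a driver of human lung adenocarcinoma.

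RNA was sequenced from 18 cultures of mice that carry a human EGFR transgene with the T790M and L858R mutations in the Col1a1 locus, driven by the CAG promoter and silent until Cre removes a stop cassette. Before transplantation there were 10 organoid cultures, grown in Matrigel from cells sorted by flow cytometry. Of the trachea, club cells (sorted as NGFR-negative) and basal cells (NGFR-positive), and of the distal lung, alveolar type 2 cells (AT2, Sca1-negative) and bronchioalveolar stem cells (BASCs, Sca1-positive) kept as a mixed culture, each gave 1 culture with Ad-GFP, the control adenovirus, and 1 with Ad-Cre. BASC organoids picked by shape gave 1 alveolar and 1 bronchiolar culture, both Ad-Cre. The other 8 cultures were tumoroids, which are tumor cells put back into culture: 3 from AT2 transplants, 3 from mixed BASC transplants and 1 from a bronchiolar BASC transplant, all grown in immunocompromised nude mice, and 1 from an autochthonous tumor that arose in a mouse given Ad-Cre. All transplanted organoids had received Ad-Cre. The study's methods call the mice of the autochthonous model adult. The cultures also held support cells from neonatal lung. Ages of the other mice and the strain of the transgenic mice are not given in the sources used here.

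Several features limit these groups as models. Each culture is a single library without a repeat of any organoid condition, so cultures of different populations stand in for replicates. The Ad-GFP and Ad-Cre cultures of a population were aliquots of the same sorted cells. Neonatal lung mesenchymal and endothelial support cells shared the Matrigel, and the tumoroids were sequenced on another platform (DNBSEQ) than the organoids (HiSeq). The AT2 tumoroids carry an NGFR-negative sorting label beside their AT2 origin. AT2 tumoroids 2 and 3 share a number in their titles, as do mixed BASC tumoroids 2 and 3 and the bronchiolar BASC tumoroid, and whether a shared number means the same mouse is not stated. The human transgene was not analysed here, and whether reads from it were assigned to mouse Egfr was not tested.

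The depth of the organoid libraries was 27772660 to 97191624 expected counts and that of the tumoroid libraries 15327265 to 23355938. The following 3 groups of organoids were compared, named by origin and marker genes: tracheal (club and basal cells, n = 4), alveolar (AT2 cells and alveolar BASCs, n = 3) and airway BASC (mixed and bronchiolar BASCs, n = 3). The paper describes the mixed BASC cultures as containing organoids of both alveolar and bronchiolar shape. Summed over 7 AT2 markers, the alveolar organoids held from 77454 to 83391 TPM (transcripts scaled by gene length and library total), the airway BASC organoids from 788 to 3540 and the tracheal organoids from 58.3 to 171. Summed basal markers were 2733 and 3043 TPM in the basal cell cultures and 3321 and 3609 TPM in the club cell cultures, so these markers did not set the NGFR-positive cultures above the NGFR-negative ones. The AT2 and mixed BASC tumoroids held from 31017 to 144746 TPM of AT2 markers, and the bronchiolar BASC tumoroid held 8177 TPM with 12633 TPM of club markers. AT2 tumoroid 3 stood apart from the other AT2 tumoroids, with the highest summed fibroblast markers of all cultures (4263 TPM, against 172 and 296 TPM in AT2 tumoroids 2 and 1) and fewer AT2 markers (31017 TPM). Of 3 immune markers, Ptprc was at or below 0.91 TPM in every culture, Cd68 was at 9.02 to 102 TPM, and Lyz2, which AT2 cells also express, was at 96.9 to 12264 TPM with the highest level in an alveolar organoid. The 4 endothelial markers summed to at most 5.24 TPM.

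Among the receptors, Erbb2 and Erbb3 were above Egfr in TPM in all cultures but the bronchiolar BASC organoid, where Egfr was above both, and AT2 tumoroid 3, where it was above Erbb3. Erbb4 was at the detection limit. Erbb4 had 0 counts in 16 of 18 libraries and at most 1 count in the others. A count of 0 allows up to 3 counts, or 0.196 CPM (counts scaled to the library total) in the shallowest library, for counting error only. It did not pass the filter on low counts, so 9 of the 10 genes were tested in each comparison.

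**Figure D1:**
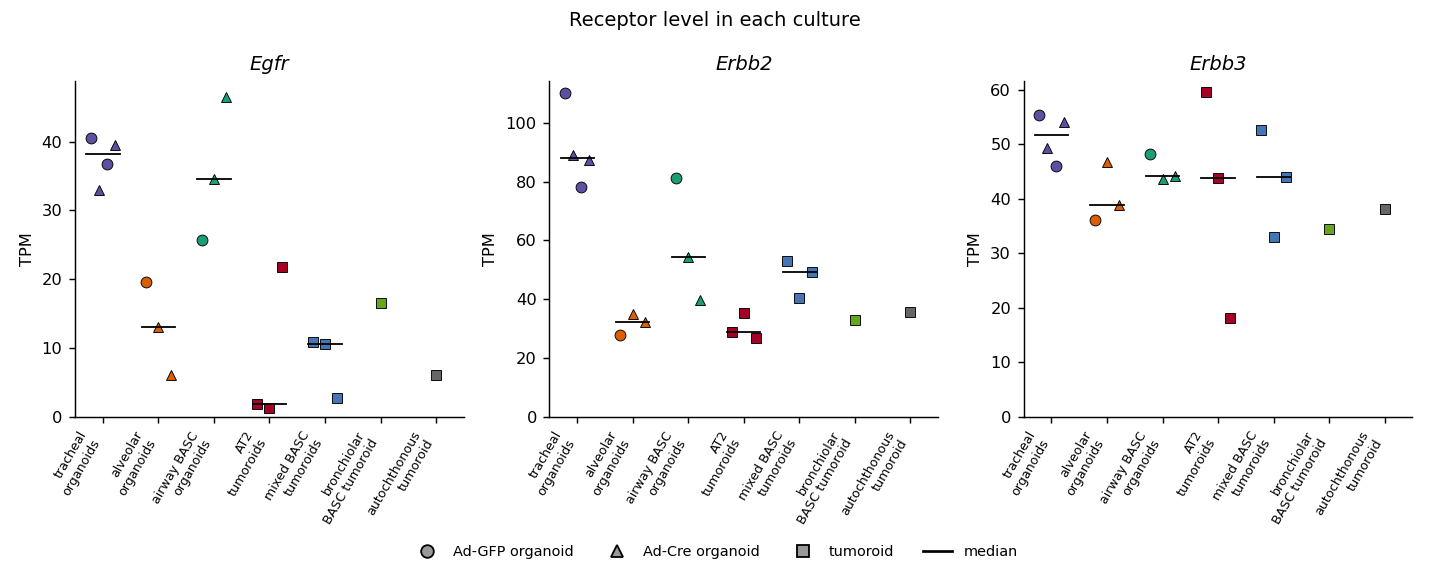
Egfr, Erbb2 and Erbb3 in TPM (y axis, from 0) in each of 18 cultures by group (x axis). Circles are Ad-GFP organoids, triangles Ad-Cre organoids, squares tumoroids, and lines group medians. The alveolar organoids lie below both other organoid groups for Egfr and Erbb2, and AT2 tumoroid 3 (21.7 TPM) lies far above the other AT2 tumoroids for Egfr.

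Egfr was lower in alveolar than in tracheal organoids. It was at 40.5 and 33.0 TPM in the club cell cultures (Ad-GFP, then Ad-Cre) and at 36.8 and 39.6 TPM in the basal cell cultures. In the alveolar organoids it was at 19.5 TPM (AT2 Ad-GFP), 13.1 TPM (AT2 Ad-Cre) and 6.11 TPM (alveolar BASC). The groups did not overlap, and the fitted level was 59.0% lower in alveolar organoids (log2 fold change -1.29, SE 0.29, adjusted p = 0.00549, edgeR's quasi-likelihood test). In the airway BASC organoids Egfr was at 25.7 TPM (mixed, Ad-GFP), 34.6 TPM (mixed, Ad-Cre) and 46.5 TPM (bronchiolar), all above the alveolar organoids and overlapping the tracheal ones. The alveolar organoids were 61.8% lower than these (log2 fold change -1.39, SE 0.31, edgeR adjusted p = 0.00618). The summed fibroblast markers ran the other way among organoids, from 1581 to 3386 TPM in the alveolar, 759 to 1756 TPM in the airway BASC and 785 to 855 TPM in the tracheal cultures.

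Erbb2, the partner of the other receptors, separated the tracheal from the alveolar organoids as well. It was at 110.0 and 89.1 TPM in club and 78.2 and 87.2 TPM in basal cell cultures, against 27.8, 34.9 and 32.3 TPM in the alveolar organoids (AT2 Ad-GFP, AT2 Ad-Cre, alveolar BASC). The level in the alveolar organoids was 61.8% lower (log2 fold change -1.39, SE 0.24, edgeR adjusted p = 0.00129), and no alveolar culture reached a tracheal one. The airway BASC organoids spread from 39.6 TPM (bronchiolar) over 54.4 TPM (mixed, Ad-Cre) to 81.1 TPM (mixed, Ad-GFP). Their difference from the alveolar organoids passed the threshold (log2 fold change -0.73, SE 0.25, edgeR adjusted p = 0.0368), but not once any of 9 single cultures was left out, nor with the Ad-Cre cultures alone (log2 fold change -0.32, edgeR adjusted p = 0.319).

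Erbb3, the neuregulin receptor, was the least variable receptor in the organoids. It ranged from 36.1 to 46.6 TPM in alveolar, 43.6 to 48.1 TPM in airway BASC and 46.0 to 55.3 TPM in tracheal organoids. The log2 fold change from tracheal to alveolar was -0.19 (SE 0.10, edgeR adjusted p = 0.113), and on the TPM scale limma called it lower (-0.34, adjusted p = 0.0238). With Egfr and Erbb2 lower and Erbb3 at -0.19, Erbb3 made up from 43.3% to 50.2% of the summed receptor TPM in alveolar organoids, against 26.9% to 29.9% in tracheal organoids. Erbb2 was the largest part in the tracheal organoids, from 48.2% to 53.5%.

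The ligands split in both directions between alveolar and tracheal organoids. Of the 9 genes tested, 4 were called higher in alveolar organoids (Areg, Btc, Tgfa and Egf) and 3 lower (Egfr, Erbb2 and Hbegf), while Erbb3 and Ereg did not pass the threshold. Over all 19349 genes tested, 28.8% were called higher and 29.4% lower, so calls of this kind were common in this comparison. The median log2 fold change was 0.37 over the 9 genes and -0.06 over all genes tested. Because aliquots of the same cells count as separate cultures in this fit, it was repeated with the 6 Ad-Cre cultures alone, 2 in each group. By the paper, its alveolar, mixed and bronchiolar BASC cultures were subcloned from BASC organoids. The refit thus removed the aliquot pairs but not this shared source. That fit called 5 of the 9 genes (Egfr, Erbb2 and Hbegf lower, Areg and Btc higher), where 4125 of all genes were called higher and 3749 lower. It gave Tgfa an edgeR adjusted p of 0.104 and Egf 0.147.

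**Figure D2:**
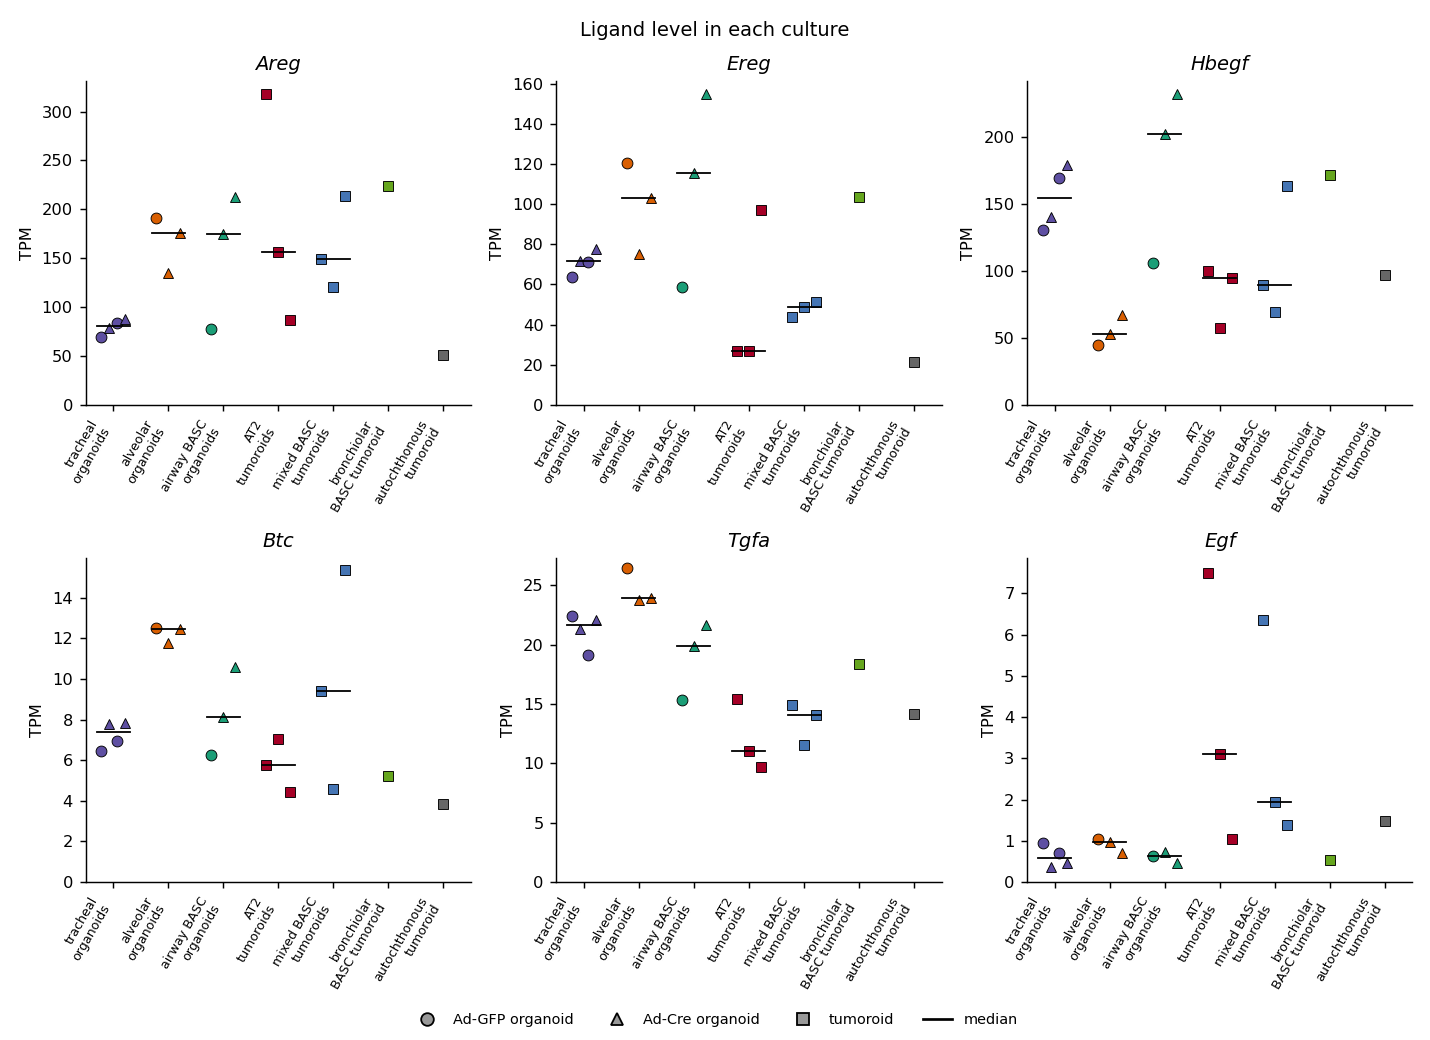
The 6 ligands in TPM (y axis, from 0) in each of 18 cultures by group (x axis), with circles for Ad-GFP organoids, triangles for Ad-Cre organoids, squares for tumoroids and lines at group medians. Areg and Btc lie higher and Hbegf lower in the 3 alveolar organoids than in the 4 tracheal organoids, and Tgfa lies lower in the transplant tumoroids than in the distal organoids with Ad-Cre.

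Areg encodes amphiregulin, a ligand with low affinity for Egfr that is known from epithelial repair. It was at 69.2, 78.4, 83.7 and 87.8 TPM in the tracheal organoids (club Ad-GFP and Ad-Cre, basal Ad-GFP and Ad-Cre). In the alveolar organoids it was at 191 TPM (AT2 Ad-GFP), 135 TPM (AT2 Ad-Cre) and 176 TPM (alveolar BASC), with no overlap. The fitted level was 2.32-fold higher in alveolar organoids (log2 fold change 1.22, SE 0.29, edgeR adjusted p = 0.00748). The airway BASC organoids held 77.5 TPM (mixed, Ad-GFP), 174 TPM (mixed, Ad-Cre) and 213 TPM (bronchiolar), so that 1 of these lay among the tracheal cultures and the others above them.

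Btc encodes betacellulin, a ligand of Egfr and Erbb4. It was at 12.5, 11.8 and 12.5 TPM in the alveolar organoids (AT2 Ad-GFP, AT2 Ad-Cre, alveolar BASC) and at 6.46, 7.80, 6.94 and 7.84 TPM in the tracheal organoids. The groups did not overlap and the level was 1.90-fold higher in alveolar organoids (log2 fold change 0.93, SE 0.17, edgeR adjusted p = 0.00209). Against the airway BASC organoids (6.28, 8.12 and 10.6 TPM) it was 1.62-fold higher (log2 fold change 0.70, SE 0.19, edgeR adjusted p = 0.0148), with an edgeR adjusted p of 0.0944 in the Ad-Cre cultures alone.

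The summed fibroblast markers moved with Areg, Btc and Tgfa over the 10 organoids, with a Pearson r of log2 values of 0.79, 0.86 and 0.75, and against Hbegf (-0.67). The AT2 markers moved with the same 3 ligands (0.83, 0.93 and 0.72) and against Hbegf (-0.73). All 7 fibroblast and all 3 smooth muscle markers were called higher in alveolar than in tracheal organoids. The part of support cells in these ligand differences was not tested.

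Areg, Ereg, Btc and the related ligand gene Epgn lie near each other on chromosome 5 (GRCm38). Epgn starts at position 91027464, Ereg at 91074622 and Areg at 91139599, all on the plus strand, while Btc runs on the minus strand from 91402994 down to 91357261. Printed here are the promoters of Areg and Btc, 2 genes of this stretch that were higher in alveolar organoids. That of Egfr, a receptor that was lower, follows. They come from the RefSeq-based table of GRCm38.p6, from which promoters were taken for 7 of the 10 genes. Hbegf was left out of that search. Each printed promoter runs 5′ to 3′ on the gene's strand over 300 bases, 250 of them before the gene's start. The intervals are chr5:91139349-91139648 (plus) for Areg, chr5:91402945-91403244 (minus) for Btc and chr11:16751953-16752252 (plus) for Egfr. Capitals mark the letters of the cyclic AMP response element (CRE) TGACGTCA and of the GC box GGGCGG, searched on both strands. The AP-1 letters TGANTCA were searched as well and did not occur in these 3 windows.
Areg: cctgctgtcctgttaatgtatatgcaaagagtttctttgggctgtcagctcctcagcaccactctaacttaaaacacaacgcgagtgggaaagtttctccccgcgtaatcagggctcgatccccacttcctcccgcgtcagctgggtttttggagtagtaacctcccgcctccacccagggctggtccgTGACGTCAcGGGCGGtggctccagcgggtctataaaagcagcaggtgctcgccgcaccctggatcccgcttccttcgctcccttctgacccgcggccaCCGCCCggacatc
Btc: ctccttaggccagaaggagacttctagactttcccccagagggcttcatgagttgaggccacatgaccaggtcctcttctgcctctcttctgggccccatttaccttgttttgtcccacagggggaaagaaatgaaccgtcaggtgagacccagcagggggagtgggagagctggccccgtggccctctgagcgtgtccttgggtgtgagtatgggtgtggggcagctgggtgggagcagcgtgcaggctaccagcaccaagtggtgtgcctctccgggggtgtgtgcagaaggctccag
Egfr: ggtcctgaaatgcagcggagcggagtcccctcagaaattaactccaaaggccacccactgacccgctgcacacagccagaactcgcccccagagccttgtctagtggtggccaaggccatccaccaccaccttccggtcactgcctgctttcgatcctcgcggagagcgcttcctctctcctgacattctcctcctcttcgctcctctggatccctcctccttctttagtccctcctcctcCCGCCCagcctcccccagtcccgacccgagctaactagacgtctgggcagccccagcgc
The Areg window held the CRE letters 61 bases before the start, and GC box letters 52 bases before and 37 bases after it, without overlap. The Egfr window held GC box letters 9 bases before the start, and the Btc window held none of the motifs. Of 32851 windows of this length, 1.79% held the CRE letters, 35.7% the GC box letters and 7.81% the AP-1 letters, and these matches are a description only.

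Ereg encodes epiregulin, which binds Egfr and Erbb4. In the tracheal organoids it was at 63.8, 71.7, 71.3 and 77.4 TPM, and in the alveolar organoids at 120 TPM (AT2 Ad-GFP), 75.2 TPM (AT2 Ad-Cre) and 103 TPM (alveolar BASC). The groups overlapped, and the difference did not pass the threshold (log2 fold change 0.63, SE 0.29, edgeR adjusted p = 0.0938). It was called by DESeq2 (adjusted p = 0.0441) and, with edgeR, without the mixed BASC Ad-GFP culture (adjusted p = 0.0135), which enters the shared estimate of spread. The airway BASC organoids held 58.6, 116 and 155 TPM (mixed Ad-GFP, mixed Ad-Cre, bronchiolar). Across the 10 organoids, log2 CPM of Areg and Ereg had a Pearson r of 0.95, a description over cultures that share sorted cells and support cells.

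Hbegf encodes heparin-binding EGF-like growth factor, which binds Egfr and Erbb4. It was the most abundant of the 6 ligands in the tracheal organoids, at 131 and 140.3 TPM in club and 170 and 179 TPM in basal cell cultures. In the alveolar organoids it was at 44.6, 52.9 and 67.1 TPM (AT2 Ad-GFP, AT2 Ad-Cre, alveolar BASC), which is 60.5% lower in the fit with no overlap (log2 fold change -1.34, SE 0.26, edgeR adjusted p = 0.00271). In the airway BASC organoids it was at 106 TPM (mixed, Ad-GFP), 203 TPM (mixed, Ad-Cre) and 233 TPM (bronchiolar), and the alveolar organoids were 66.1% lower than these (log2 fold change -1.56, SE 0.28, edgeR adjusted p = 0.00215).

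Tgfa and Egf changed less or were low. Tgfa, a high-affinity ligand of Egfr, was at 26.5, 23.8 and 23.9 TPM in alveolar organoids against 19.2 to 22.4 TPM in tracheal organoids (log2 fold change 0.37, SE 0.11, edgeR adjusted p = 0.0193) and 15.3 to 21.6 TPM in airway BASC organoids (log2 fold change 0.53, SE 0.12, edgeR adjusted p = 0.00629). The first call was lost once any of 4 single cultures was left out, and the second with the Ad-Cre cultures alone (edgeR adjusted p = 0.0682). Egf, the founding ligand, was at or below 1.05 TPM in every organoid culture, from 17 to 123 expected counts. Its log2 fold change between alveolar and tracheal organoids was 0.82 (SE 0.30, edgeR adjusted p = 0.0415), with overlapping values and no call once any of 5 single cultures was left out.

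**Figure D3:**
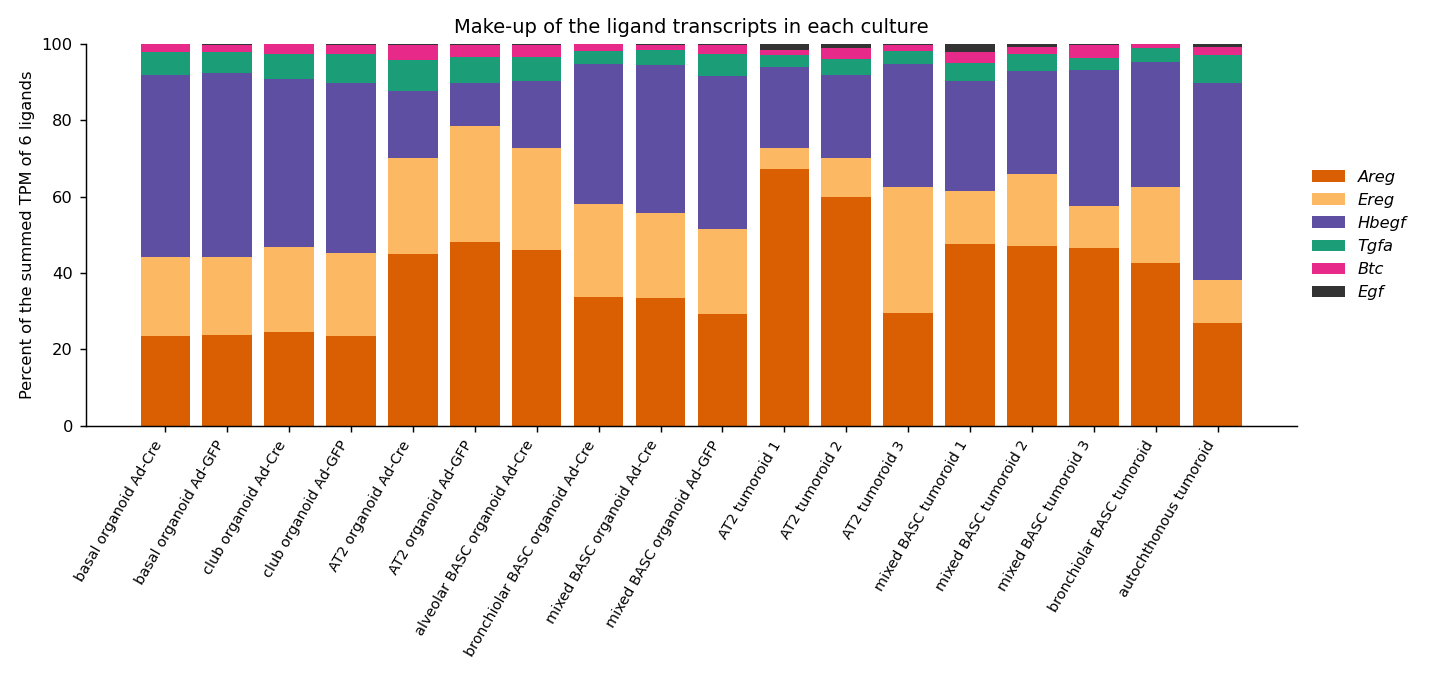
Percent of the summed TPM of the 6 ligands (y axis, 0 to 100) that each ligand made up in each of 18 cultures (x axis). Hbegf is the largest part in tracheal organoids (43.9% to 48.2%) and Areg in alveolar organoids (45.1% to 48.2%).

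As a share of the summed TPM of the 6 ligands, Areg was 45.1% to 48.2% in alveolar, 29.3% to 33.6% in airway BASC and 23.4% to 24.5% in tracheal organoids. Hbegf was 11.3% to 17.7% in alveolar, 36.8% to 40.2% in airway BASC and 43.9% to 48.2% in tracheal organoids. The airway BASC organoids thus lay between the others in both shares, and nearer to the tracheal ones in both. Levels in such bulk libraries cannot tell fewer cells of a type apart from less RNA per cell.

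Between airway BASC and tracheal organoids none of the 9 genes was called, by edgeR's quasi-likelihood test, where 0.698% of all genes were called higher and 0.165% lower. Erbb2 (log2 fold change -0.66, SE 0.23, adjusted p = 0.206) and Areg (0.95, SE 0.29, adjusted p = 0.165) had an unadjusted p of 0.0203 and 0.0113, and DESeq2 called Areg (adjusted p = 0.0327). The mixed BASC Ad-GFP culture decided this count. Without it, Erbb2 (log2 fold change -0.99), Areg (1.27) and Ereg (0.91) were called, and 3514 genes were called in all in place of 167. Leaving out any 1 of the tracheal cultures left at most 3 genes called. On the TPM scale with limma, 67 genes were called higher and 65 lower in place of 135 and 32.

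Between alveolar and airway BASC organoids 5 of the 9 genes were called, with Tgfa and Btc higher and Egfr, Erbb2 and Hbegf lower, where 24.0% of all genes were called higher and 25.7% lower. The median log2 fold change was 0.02 over the 9 genes and -0.05 over all. In the Ad-Cre cultures alone, edgeR called Egfr (log2 fold change -1.95, edgeR adjusted p = 0.00913) and Hbegf (-1.70, edgeR adjusted p = 0.00637). In that fit 3101 of all genes were called higher and 2595 lower, and its BASC cultures on both sides share BASC organoids as a source. Between basal and club cell organoids no gene was called by edgeR, a background of 0.00% with 448 of 19349 genes at an unadjusted p under 0.05, and none of the 9 genes was among those 448. DESeq2 called 11 genes and limma on TPM 3, none of them among the 9. From club to basal, the log2 fold change was 0.39 (SE 0.33) for Hbegf, 0.24 (SE 0.39) for Areg and -0.22 (SE 0.30) for Erbb2, past no threshold.

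**Figure D4:**
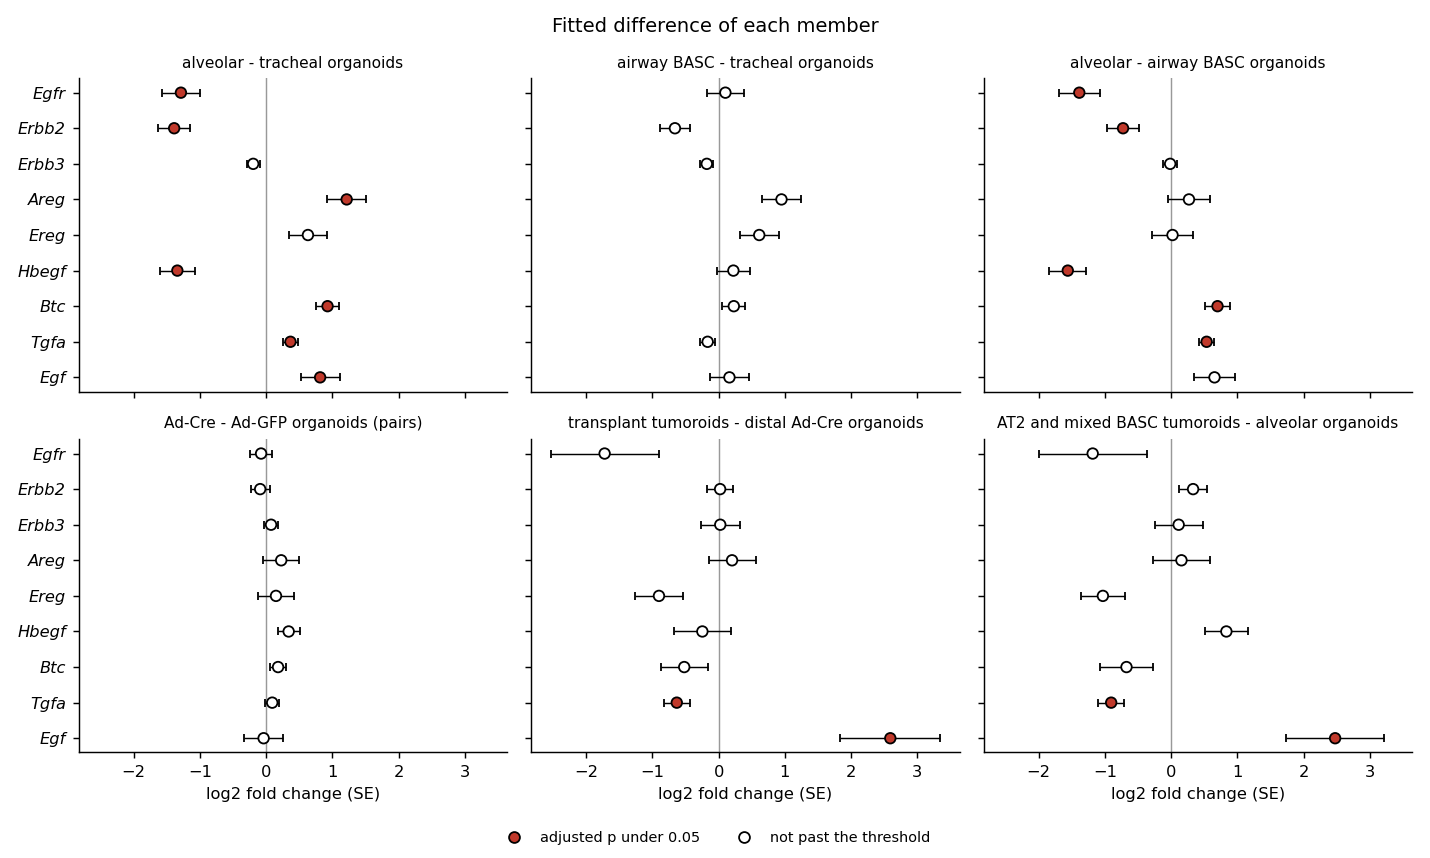
Fitted log2 fold change of 9 genes with its SE (x axis) in 6 comparisons, one to a panel, named as first group minus second. Filled points passed an adjusted p of 0.05 in edgeR's test across all genes. The called differences lie in the comparisons with alveolar organoids and with tumoroids, and the comparison of Ad-Cre with Ad-GFP holds none.

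Other genes of the pathway were read from lists of 5 further ERBB ligands, 7 genes of ligand shedding, 17 adaptors and 15 genes of receptor restraint and turnover. Between alveolar and tracheal organoids, 1 of the 4 further ligands tested was higher and 2 were lower. Epgn, which encodes the Egfr ligand epigen, was at 11.6, 3.19 and 3.42 TPM in alveolar organoids and at 0.17 to 0.34 TPM in tracheal organoids (log2 fold change 4.72, SE 0.51, edgeR adjusted p = 0.000107). Nrg2, a neuregulin that binds Erbb3 and Erbb4, fell by 3.85 on the log2 scale (SE 0.63, edgeR adjusted p = 0.00104). Nrg1, another neuregulin and named here by its call in the next comparison, fell by 2.28 (SE 0.37, edgeR adjusted p = 0.000949). Relative to airway BASC organoids, Epgn was higher by 4.01 (SE 0.54, edgeR adjusted p = 0.000509), and Nrg1 fell by 2.93 (SE 0.39, edgeR adjusted p = 0.000505).

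Among 15 restraint and turnover genes, 8 were called lower and 2 higher in alveolar than in tracheal organoids, where 29.4% of all genes were lower and 28.8% higher. Against airway BASC organoids 7 were lower, 3 higher and 5 not called, where 25.7% of all genes were lower and 24.0% higher. The counts of the other pathway lists in these comparisons stand against the same shares, and those of the further ligands and shedding genes rest on 4 and 7 genes. Lrig1, a membrane protein that promotes the degradation of ERBB receptors, was at 22.2 to 33.4 TPM in alveolar and 117 to 175 TPM in tracheal organoids (log2 fold change -2.44, SE 0.32, edgeR adjusted p = 0.000306). Its relative Lrig3 fell by 1.54 (SE 0.12, edgeR adjusted p = 2.31e-05). Among 16 adaptors tested, 7 were higher and 2 lower than in tracheal organoids, led by Grb10, an adaptor of receptor tyrosine kinases (log2 fold change 3.80, edgeR adjusted p = 4.05e-06), and Shc2 (2.68, edgeR adjusted p = 8.48e-05). Relative to airway BASC organoids, 5 adaptors were higher and 2 lower, again led by Grb10 (2.45) and Shc2 (1.68). Among the 7 shedding genes, 3 were higher and 1 lower than in tracheal organoids, with the iRhom genes Rhbdf2 up (0.58, edgeR adjusted p = 0.00356) and Rhbdf1 down (-0.53, edgeR adjusted p = 0.00181). Against airway BASC organoids 3 were higher and 2 lower, the metalloprotease Adam12 having the largest difference (-1.59, edgeR adjusted p = 0.0208). Between airway BASC and tracheal organoids, Grb10 was the one pathway gene called (1.35, edgeR adjusted p = 0.0177). The median log2 fold change from tracheal to alveolar organoids was -0.33 for restraint and turnover, 0.26 for adaptors and 0.26 for shedding, against -0.06 over all genes.

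Ad-Cre, which activates the human transgene, was compared with Ad-GFP in the 4 matched pairs of cultures. No gene was called, a background of 0.00% of 19178 genes with edgeR, while 396 had an unadjusted p under 0.05 and DESeq2 called 5. None of the 9 genes had an unadjusted p under 0.05. Hbegf was higher with Ad-Cre in 4 of 4 pairs, at 131 and 140.3 TPM in club, 170 and 179 TPM in basal, 44.6 and 52.9 TPM in AT2, and 106 and 203 TPM in mixed BASC cultures (Ad-GFP, then Ad-Cre). Its fitted log2 fold change was 0.34 (SE 0.17, edgeR adjusted p = 0.996). Mouse Egfr differed by -0.08 (SE 0.17) and Erbb2 by -0.09 (SE 0.14), which leaves changes of the size of these errors open.

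The distal pairs moved in opposite directions for several genes. Egfr had a log2 ratio of Ad-Cre to Ad-GFP in TPM of -0.58 in the AT2 pair and 0.43 in the mixed BASC pair. Areg had -0.50 and 1.17, and Ereg -0.68 and 0.98. The tracheal pairs lay closer to 0, with 0.18 (club) and 0.07 (basal) for Areg and 0.17 and 0.12 for Ereg. In the same cultures the summed fibroblast markers were 3386 and 2866 TPM in the AT2 pair and 759 and 1756 TPM in the mixed BASC pair, and the AT2 markers were 83391 and 77454 TPM and 788 and 3540 TPM. Their part in these differences was not tested.

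The difference of the Ad-Cre effect between distal and tracheal cultures was called for no gene by edgeR (0.00% of 19178, with 890 at an unadjusted p under 0.05 and 137 called by DESeq2). None of the 9 genes was called by either tool. Leaving out either culture of a distal pair leaves the distal side with 1 pair, and the spread then comes from the 2 tracheal pairs alone and is assumed for the distal pair. Against that spread the mixed BASC pair passed the threshold for Areg (log2 difference 1.09), Hbegf (0.89) and Ereg (0.88), in fits that called 1778 and 1789 genes in all. The AT2 pair passed it for Ereg (-0.86 and -0.88), in fits that called 714 and 472 genes. These calls have no replicate on the distal side.

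The 7 transplant tumoroids were compared with the 4 distal Ad-Cre organoids. Egf was higher and Tgfa lower in the tumoroids, 2 of 9 genes, where 10.8% of all genes were called higher and 8.77% lower. The median log2 fold change was -0.25 over the 9 genes and -0.00 over all. Platform and stage cannot be told apart here, since all tumoroids were sequenced on one platform and all organoids on the other.

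Egf ranged from 0.53 TPM (bronchiolar BASC) over a median of 1.93 TPM to 7.50 TPM (AT2 tumoroid 1) in the transplant tumoroids, and from 0.46 to 0.97 TPM in the distal Ad-Cre organoids. Its log2 fold change was 2.59 (SE 0.76, edgeR adjusted p = 0.0345), and the groups overlapped through the bronchiolar BASC tumoroid alone. Tgfa ranged from 9.71 over a median of 14.1 to 18.4 TPM in the tumoroids and was at 23.8, 19.9, 23.9 and 21.6 TPM in the organoids (AT2, mixed, alveolar and bronchiolar BASC). The groups did not overlap, and Tgfa fell by 0.63 on the log2 scale (SE 0.20, edgeR adjusted p = 0.0465). These calls sit near the threshold. Leaving out any 1 of the 4 organoid cultures, or mixed BASC tumoroid 1, removed both, and leaving out AT2 tumoroid 2 or mixed BASC tumoroid 2 or 3 removed that of Tgfa.

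Egfr varied most of all receptors in the tumoroids. It was at 1.89, 1.24 and 21.7 TPM in AT2 tumoroids 1 to 3, at 10.8, 10.6 and 2.69 TPM in mixed BASC tumoroids 1 to 3, and at 16.5 TPM in the bronchiolar BASC tumoroid. The distal Ad-Cre organoids were at 13.1, 34.6, 6.11 and 46.5 TPM (AT2, mixed, alveolar and bronchiolar BASC). The groups overlapped, and the fitted difference did not pass the threshold (log2 fold change -1.72, SE 0.81, edgeR adjusted p = 0.161). The 3 lowest values, 1.24, 1.89 and 2.69 TPM, rested on 52 expected counts or more.

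The fibroblast markers moved with Egfr among the tumoroids. The summed level of the 7 markers was 172, 296 and 330 TPM in the tumoroids with the lowest Egfr (AT2 tumoroids 2 and 1, mixed BASC tumoroid 3) and 4263 TPM in AT2 tumoroid 3, which had the highest. Over the 8 tumoroids the Pearson r between log2 values was 0.82 for Egfr and -0.86 for Erbb3, while over the 10 organoids it was -0.58 and -0.57. With the summed AT2 markers, r was -0.76 for Egfr and 0.57 for Erbb3 over the tumoroids, and -0.76 and -0.64 over the organoids. Erbb3 was at 59.5, 43.8 and 18.1 TPM in AT2 tumoroids 1 to 3, at 52.7, 32.9 and 43.97 TPM in mixed BASC tumoroids 1 to 3 and at 34.4 TPM in the bronchiolar BASC tumoroid. The lowest Erbb3 of all 18 cultures was thus in AT2 tumoroid 3, where the fibroblast markers were highest. The part of support cells and of AT2 content in these levels was not tested.

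**Figure D5:**
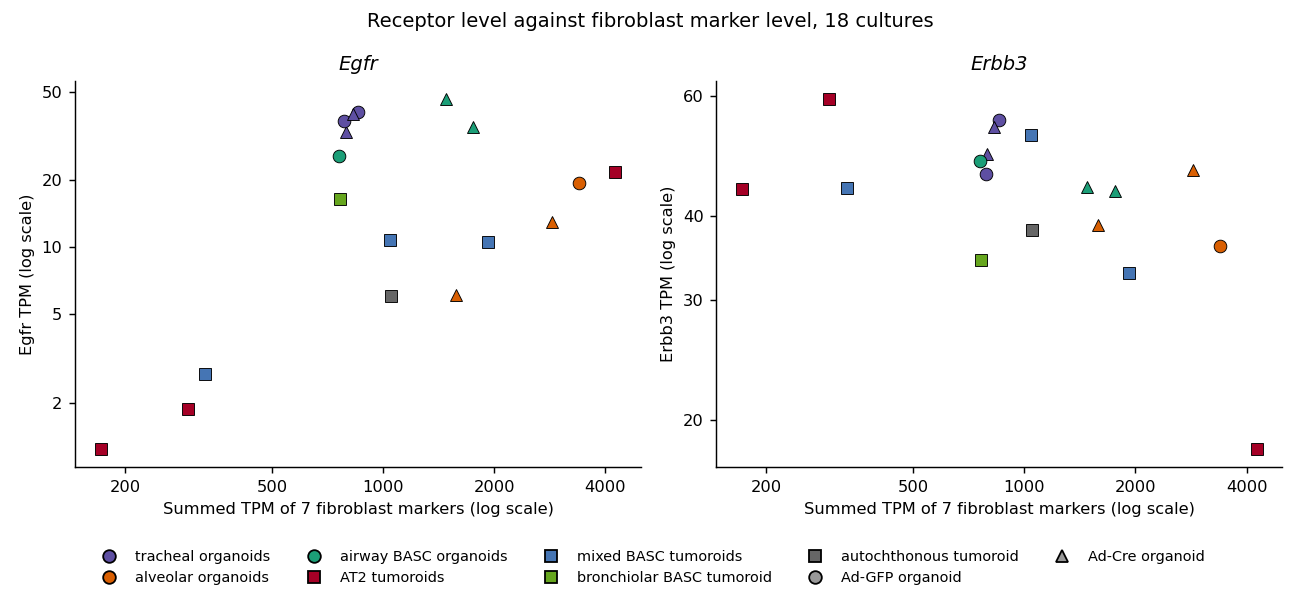
Egfr and Erbb3 TPM (y axes, log scale) against the summed TPM of 7 fibroblast markers (x axes, log scale) in 18 cultures, colored by group, with circles for Ad-GFP organoids, triangles for Ad-Cre organoids and squares for tumoroids. Among the squares Egfr goes up and Erbb3 down with the markers, and AT2 tumoroid 3 lies at the right end (4263 TPM).

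Erbb2 was steadier, from 26.7 to 52.8 TPM in the transplant tumoroids and 32.3 to 54.4 TPM in the distal Ad-Cre organoids (log2 fold change 0.02, SE 0.19, edgeR adjusted p = 0.951). The length that RSEM, the program behind the counts, gave Egfr as a mean over its transcripts was shorter in AT2 tumoroids (3029 to 4632 bases), mixed BASC tumoroids (4591 to 5896 bases) and the autochthonous tumoroid (5779 bases) than in every organoid (5972 to 8639 bases). The bronchiolar BASC tumoroid, at 7252 bases, lay among the organoids. Since TPM divides by this length, a shorter length gives a higher Egfr TPM for the same counts. The Egfr levels of those tumoroids and the organoids can therefore compare differently in TPM and in share of counts.

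Ereg was low in most transplant tumoroids. It was at 26.9, 26.8 and 97.3 TPM in AT2 tumoroids 1 to 3, at 43.6, 48.6 and 51.2 TPM in mixed BASC tumoroids 1 to 3 and at 104 TPM in the bronchiolar BASC tumoroid. The distal Ad-Cre organoids were at 75.2 to 155 TPM, and the log2 fold change was -0.90 (SE 0.36, edgeR adjusted p = 0.104). Without the bronchiolar BASC tumoroid it was -1.13 and was called (edgeR adjusted p = 0.0283). Areg, its neighbor, ranged from 86.8 to 318 TPM with a median of 157 TPM in the tumoroids and from 135 to 213 TPM in these organoids (log2 fold change 0.20, SE 0.36, edgeR adjusted p = 0.729). Hbegf (-0.25, SE 0.43) and Btc (-0.52, SE 0.35) did not pass the threshold either.

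A narrower comparison set the 6 AT2 and mixed BASC tumoroids against the 3 alveolar organoids, which include the AT2 Ad-GFP culture. Both sides were high in summed AT2 markers. Of these 7 markers, 2 were called lower in the tumoroids (median log2 fold change -0.76 over the 7), so the sides were not matched in full. Here 12.7% of all genes were called higher and 9.07% lower, with the same platform difference. Egf was higher (log2 fold change 2.48, SE 0.74, edgeR adjusted p = 0.0418), at 1.04 to 7.50 TPM against 0.70 to 1.05 TPM with an overlap, and Tgfa lower (-0.91, SE 0.19, edgeR adjusted p = 0.0109), at 9.71 to 15.4 TPM against 23.8 to 26.5 TPM. Tgfa did not overlap, and its adjusted p was 0.0531 with the 2 Ad-Cre alveolar cultures alone, where Egf had 0.13 (edgeR). The call of Egf was lost once any 1 alveolar culture, AT2 tumoroid 2 or mixed BASC tumoroid 1 was left out. Ereg (log2 fold change -1.03, SE 0.33, edgeR adjusted p = 0.052) was called without AT2 tumoroid 3 (-1.30, adjusted p = 0.00471). Hbegf was at 57.2 to 163 TPM against 44.6 to 67.1 TPM (0.83, SE 0.32, edgeR adjusted p = 0.0961). Egfr differed by -1.19 (SE 0.82, edgeR adjusted p = 0.338), and by -1.64 without AT2 tumoroid 3.

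Other pathway genes were called in both tumoroid comparisons, of which the tumoroids are largely the same libraries. Against the distal Ad-Cre organoids, 5 of 15 restraint and turnover genes were lower and 1 higher, where 8.77% of all genes were lower and 10.8% higher, led by Cbl, a ubiquitin ligase of activated Egfr (log2 fold change -1.12, SE 0.30, edgeR adjusted p = 0.0237), and Socs4 (-0.89, SE 0.15, edgeR adjusted p = 0.00296). Against the alveolar organoids 4 were lower and 1 higher, where 9.07% of all genes were lower and 12.7% higher, with Cbl at -0.99 (edgeR adjusted p = 0.0487) and Hgs, an endosomal sorting protein, at 0.82 (edgeR adjusted p = 0.00172). Frmd8, which stabilizes the Adam17 and iRhom complex, was higher in the first (0.85, edgeR adjusted p = 0.00475) and the second comparison (0.81, edgeR adjusted p = 0.00813). Adam10, another ligand-shedding protease, was lower in the first (-0.63, edgeR adjusted p = 0.0152). Among adaptors, 1 was higher and 2 lower in the first comparison and 3 were lower in the second. The PI3-kinase subunit genes Pik3r1 (-0.94, edgeR adjusted p = 0.0227) and Pik3ca (-0.55, edgeR adjusted p = 0.00944) led the first, and Pik3r1 (-1.18, edgeR adjusted p = 0.00792) and Nck1 (-0.72, edgeR adjusted p = 0.00987) the second. Nrg4, a ligand of Erbb4, was lower in the first (-1.43, SE 0.46, edgeR adjusted p = 0.0484), from 3.2 to 33.3 expected counts in the tumoroids.

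Between the 3 AT2 and the 3 mixed BASC tumoroids no gene was called by edgeR (0.00% of 15470), 144 had an unadjusted p under 0.05 and DESeq2 called 7. None of the 9 genes was among them. Of the 9 genes, Erbb2 had the lowest unadjusted p (0.104, edgeR). It was at 26.7 to 35.3 TPM in AT2 and 40.4 to 52.8 TPM in mixed BASC tumoroids (log2 fold change -0.42, SE 0.22, edgeR adjusted p = 1). Without AT2 tumoroid 3 the log2 fold change of Egfr moved from -0.22 to -2.59, still past no threshold.

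The bronchiolar BASC and autochthonous tumoroids were single libraries and were not tested. The bronchiolar BASC tumoroid held Egfr at 16.5, Areg at 224, Hbegf at 172 and Ereg at 104 TPM, each but Egfr and Areg above every AT2 and mixed BASC tumoroid. Its Nrg1 was at 77.3 TPM, against 51.1 TPM in the bronchiolar BASC organoid and at most 32.4 TPM in any other culture. The autochthonous tumoroid held Egfr at 6.05, Erbb2 at 35.7, Erbb3 at 38.2, Areg at 50.8 and Ereg at 21.2 TPM, and the last pair were the lowest of all 18 cultures.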

How the data were processed

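Total RNA of 18 cultures was sequenced, the organoids with TruSeq libraries on a HiSeq and the tumoroids on the DNBSEQ platform. Per the labels and the submitters' processing notes, the authors trimmed reads (Trimmomatic 0.39), aligned them to GRCm38 (STAR 2.6.1d) and ran RSEM 1.3.2. The deposited expected counts are RSEM's estimated counts per gene, not normalized, and the deposited TPM values were scaled by the authors with RSEM's effective lengths. Of 46603 gene IDs, 46005 matched GENCODE vM21.

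Expected counts were rounded, filtered (edgeR filterByExpr), scaled by TMM and tested with edgeR 4.0.16 (R 4.3.3), two-sided with Benjamini-Hochberg adjustment over all genes tested and a threshold of 0.05. Organoids were fitted together by class, Ad-Cre against Ad-GFP with cell population as a block, since each pair came from the same sorted cells, and tumoroid comparisons with their own groups. Alternatives were DESeq2 1.42.0 and its size factors, no filter, a minimum of 10 counts in every sample, limma 3.58.1 on log2(TPM + 0.5), each culture left out and other sample sets. The fits were also run on simulated independent counts. These did not model aliquots of the same cells, so nothing is concluded from them about the p-values here. SE values were derived from edgeR's F statistic, as the absolute log2 fold change divided by the square root of F. Pathway genes are named where called, at most 2 per list and comparison, by the largest fold change. The genes and lists were chosen with earlier results of these data known. Cultures are samples of unlike populations and p-values measure the spread between them. Aliquots of the same cells make them too small. Counting limits cover counting error only.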

Additional observations from a re-analysis of the deposited data

Results flagged for a closer look

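Ereg in AT2 tumoroid 3 stood apart from the other AT2 and mixed BASC tumoroids. Its level was 97.26 TPM, the nearest other tumoroid was at 51.23 TPM, and the gap took 0.654 of the range over the 6 tumoroids, above Dixon's critical value of 0.625. It was the 1 value flagged when the highest and lowest were examined in 36 combinations of gene and group, some of which share tumoroids. Chance gives about 1 in 20, so 1 flag among 36 is no more than chance would give. The same tumoroid held the most fibroblast markers of all cultures (4263 TPM) and the fewest AT2 markers of the 6 (31017 TPM), and their part in its Ereg level was not tested.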

How the results depend on the processing

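Of 272 refitted values for the 16 called differences of single genes, 219 stayed past the threshold, 53 did not and 0 turned direction. In the tumoroid comparisons some fits are counted again under another setting, such as those without the bronchiolar BASC tumoroid or the AT2 Ad-GFP culture. Of 1015 values for differences that were not called, 21 passed the threshold and 2 passed it with the other sign, and the cause was not tested. Those 2 are Ereg in the difference of the Ad-Cre effect (0.88 without the Ad-GFP and 0.88 without the Ad-Cre AT2 culture, in a range over left-out cultures from -0.88 to 0.88), with 1 distal pair left and the spread taken from the tracheal pairs alone. Between airway BASC and tracheal organoids (0 of the 9 genes and 167 of all called), DESeq2 called 1 and 1211, no filter gave 272 of all, the Ad-Cre cultures alone 95 and virus as a term 76, and leaving out a culture gave 0 to 3 and 0 to 3514. Between alveolar and airway BASC organoids (5 and 9618), the Ad-Cre cultures alone gave 2 and 5696. Where edgeR called 0 of all genes, DESeq2 called 11 and limma 3 (basal against club), DESeq2 5 (Ad-Cre against Ad-GFP), DESeq2 137 and no filter 2 (difference of the Ad-Cre effect, 0 to 1789 of all and 0 to 3 of the 9 without a culture) and DESeq2 7 (AT2 against mixed BASC tumoroids). For transplant tumoroids against distal organoids (2 and 3167), no filter and limma gave 1 of the 9, and leaving out a culture gave 0 to 3 and 1973 to 3716. For AT2 and mixed BASC tumoroids against alveolar organoids (2 and 3535), DESeq2 gave 4 of the 9, limma 1, the 2 Ad-Cre alveolar cultures alone 0 and 1538 of all, and leaving out a culture 0 to 3 and 1451 to 4484. On the TPM scale the median of all genes moved to -0.17 (alveolar against tracheal, 4484 higher and 6922 lower), -0.15 (alveolar against airway BASC, 3663 and 5703), -0.11 (transplant tumoroids, 1260 and 1458) and -0.15 (AT2 against mixed BASC tumoroids). Leaving out the block for cell population changed no call. Egf rested on as few as 17 expected counts and Egfr in the tumoroids on as few as 52.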

Other observations

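Areg and Ereg kept a narrow ratio in the organoids and a wide one in the tumoroids. The TPM of Areg divided by that of Ereg was 1.08 and 1.09 in club, 1.17 and 1.13 in basal, 1.59 and 1.8 in AT2 and 1.32 and 1.51 in mixed BASC cultures (Ad-GFP, then Ad-Cre), 1.71 in the alveolar and 1.38 in the bronchiolar BASC culture. In the tumoroids it was 11.8, 5.84 and 0.893 in AT2 tumoroids 1 to 3, 3.41, 2.48 and 4.16 in mixed BASC tumoroids 1 to 3, 2.16 in the bronchiolar BASC and 2.4 in the autochthonous tumoroid. Across the 8 tumoroids the Pearson r of their log2 CPM was 0.20, a description over libraries of 1 platform.

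Among 10296 genes, those whose log2 CPM over the 18 cultures was most like that of Egfr were Cyp2j6 (Pearson r 0.97), Enah (0.97) and Has2 (0.97). For Erbb2 they were Engase, Dcxr and Gm42427 (0.93 to 0.92), for Hbegf Tgif1, Plcg2 and Prss22 (0.89 to 0.86), and for Ereg Bhlhe41, Lif and Cavin3 (0.88 to 0.87). For Areg the highest was Prkra (0.84). These values are descriptions over cultures that share origin, stage and platform.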
